A study of Homo sapiens with 16 samples.

Results

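The uridines described here lie inside runs of U in messenger RNA. They are the listed U positions of protein-coding transcripts, outside the mitochondrial chromosome, whose neighbours on both sides are also U in the 31-base sequence deposited with each position. They are called run U below. They numbered 8108 of 719918 listed positions over 10 tables, and the same tables listed 169993 other mRNA U. A further 5810 mRNA U came with fewer than 31 bases and entered neither group. Of the run U, 4253 lay in runs of 3 U, 2227 in runs of 4 and 1628 in runs of 5 or more, the longest being 21 U. They fell in 2344 genes. By this rule the first and the last U of a run are not run U, so a run of 3 can hold only 1.

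The samples were 16 libraries of fragmented poly(A) RNA from human cell lines, with 2 libraries in each of 8 groups. HEK293T, a line from embryonic kidney, gave CMC+ libraries with Terminator, CMC+ libraries and CMC- libraries. HCT116-shDKC1, a colon carcinoma line labelled as a DKC1 knockdown, gave CMC+ libraries with Terminator and CMC- libraries. Wild-type HCT116 gave CMC+ libraries with Terminator, CMC+ libraries and CMC- libraries. Per the labels every library also carried RA3+ and DA3+, and the Terminator libraries AP5+ with RE+ in HEK293T or XhoI in the HCT116 lines. The labels do not say whether the knockdown line is 1 clone. The mark Lacz stands in the names of the tables of both HCT116 lines, knockdown included, and the labels do not explain it. CMC is a carbodiimide that leaves an adduct on pseudouridine which halts reverse transcriptase, and Terminator is an exonuclease acting on RNA whose 5′ end bears a monophosphate.

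Pseudouridine is an isomer of uridine made after transcription by pseudouridine synthases. DKC1 (dyskerin) is the synthase of the H/ACA ribonucleoproteins, which small RNAs guide to their targets. Of the synthases that act without a guide, PUS7 favours a U followed by A and TRUB1 a U followed by C, so neither context can hold a run U, which is always followed by U. Reverse transcriptase reads the template from its 3′ end, so within a run it meets the last U first. A stop read is one whose cDNA ended at the position, covering reads are the reads that span it, and the stop percent relates the first to the second. To be listed, a position needed 5 or more stop reads in the treated library, 1 or more in its CMC- library, and a stop ratio in the treated library no lower than in the control. That last condition sets the direction of any listed position's stop percent against CMC-, which is therefore no finding here. A U that is not listed is not a U without stops.

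The sequences below surround the run U on which the comparisons turn, 25 bases each, 5′ to 3′ on the transcribed strand in the hg38 build with T for U. The capitals mark the whole run, and the listed U is base 13 of each line, which is the last inner U (the next-to-last capital) except in EEF1A1. The first set holds HEK293T run U with more stop reads in the Terminator libraries, and it is shown so that the base after the run can be read in each. The sequences are from EIF4G1 (chr3:184326546-184326570, plus strand), TRIM28 (chr19:58544446-58544470, plus), AC010197.2, which overlaps LDHB (chr12:21641964-21641988, minus), RBBP7 (chrX:16857617-16857641, minus) and TOMM7 (chr7:22813135-22813159, minus).
EIF4G1: acaaccagctcTTTgcacctggagg
TRIM28: ggcctcggctcTTTctgcgagcggg
AC010197.2: catggatggaTTTTgggggaacatg
RBBP7: tggaattcaaaTTTgagtggacatc
TOMM7: ggtcttctggaTTTggaggcaatca

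The second set holds run U of the HCT116 lines, shown because they rose in wild-type and knockdown cells. They are from DAP3 (chr1:155689077-155689101, plus), RPL11 (chr1:23693816-23693840, plus), RPL35A (chr3:197951234-197951258, plus), TMSB10 (chr2:84906596-84906620, plus), RPS6 (chr9:19376499-19376523, minus), SCD (chr10:100363923-100363947, plus) and PGK1 (chrX:78124968-78124992, plus). EEF1A1 (chr6:73517620-73517644, minus) and the first ACTG1 line (chr17:81510499-81510523, minus) are the run U that fell. The second ACTG1 line (chr17:81510084-81510108, minus) and HNRNPA1 (chr12:54284799-54284823, plus) are long runs listed in all 10 tables.
DAP3: cccgacccTTTTTTgcagtctcagg
RPL11: ctgtcagatccTTTggcatccggag
RPL35A: aattgaaggtgTTTacgcccgagat
TMSB10: aaattctccggTTTgccccgggata
RPS6: tatgctaaacTTTTggccaagagaa
SCD: tgcagaatcccTTTgcacctgagac
PGK1: aatgggaagcTTTTgcccggggaac
EEF1A1: tttggttttcTTTTTTgcgtgtggc
ACTG1, fell: ttgttgctgaTTTTgaccttgtatt
ACTG1, long run: gtaaggTTTTTTTTgtacgcaattc
HNRNPA1: agaTTTTTTTTTTTgcaccccatgc

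The read totals behind the authors' RPM values (reads per 1e6 reads of the library) ran from 8653000 to 31262000 per library. The CMC- libraries of wild-type HCT116 had totals of 8940000 and 10230000 in the CMC+ tables, and of 27272000 and 31262000 in the Terminator tables. Stop reads were few: the median in the treated library was 6 in every table, 1 above the listing minimum. This held for run U and for other mRNA U alike. Markers of HCT116 were listed for 4 to 5 of 8 genes in the HCT116 tables and for at most 1 in the HEK293T tables, and no haematopoietic marker was listed in any table. Markers of HEK293T were listed for 3 to 6 of 6 genes in the HEK293T tables. In HEK293T CMC+ replicate 1, VIM had 451 listed positions and CKB 763, while NEFL and HOXA10 had 1 each. Each table of the HCT116 lines also listed 1 HEK293T marker, at 69 to 204 positions. DKC1 itself had 1 to 3 listed positions per Terminator table of the HCT116 lines and 0 shared by all 4, so the knockdown could not be checked from these tables. Near-identical copies exist for several genes below (GAPDH, RPSA, EEF1A1 and the RPL and RPS genes), and how multi-mapped reads were counted is not given in the sources used here.

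Run U were a small share of the listed mRNA U, and smallest in the HEK293T Terminator libraries. They made up 2.86% and 2.94% of listed mRNA U in HEK293T Terminator replicates 1 and 2, against 5.99% and 5.90% in HEK293T CMC+. In HCT116-shDKC1 Terminator libraries they made up 4.62% and 4.22%, against 4.61% and 3.94% in wild-type HCT116 Terminator libraries. HCT116 CMC+ libraries had 5.35% and 5.62%. The Terminator and CMC+ libraries did not overlap in either cell line, and the knockdown and wild-type Terminator libraries did overlap. In wild-type HCT116 the tables with and without Terminator give their CMC- libraries differing totals. Terminator and the making of the tables thus cannot be told apart there, in this and every later comparison of them. The HEK293T tables being compared share their CMC- libraries.

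A U drawn evenly from the same annotated transcripts would have been a run U in 6.55% to 6.99% of cases by group mean. Among U in annotated transcripts, the listed share over this even share was 0.428 ± 0.007 in HEK293T Terminator libraries and 0.803 ± 0.005 in HEK293T CMC+ libraries (SD, n = 2 each). It was 0.645 ± 0.039 in knockdown and 0.641 ± 0.050 in wild-type HCT116 Terminator libraries, and 0.788 ± 0.033 in HCT116 CMC+ libraries. All 10 tables thus lay below 1 against the even share, from 0.424 to 0.811. The ratio was lower for longer runs in 4 of the 5 groups: in HEK293T Terminator libraries it was 0.520 for runs of 3, 0.365 for runs of 4 and 0.307 for runs of 5 or more. It was 0.850, 0.486 and 0.392 in knockdown and 0.824, 0.516 and 0.383 in wild-type HCT116 Terminator libraries, and 0.902, 0.761 and 0.576 in HCT116 CMC+ libraries. In HEK293T CMC+ libraries these ratios were 0.815, 0.831 and 0.743, with no such order between runs of 3 and 4. The even share takes every U of a transcript alike, covered or not. With at least 50 covering reads in both libraries of a pair, the share of run U averaged 3.55% over the 5 treated groups, against 4.61% without that limit.

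**Figure D1:**
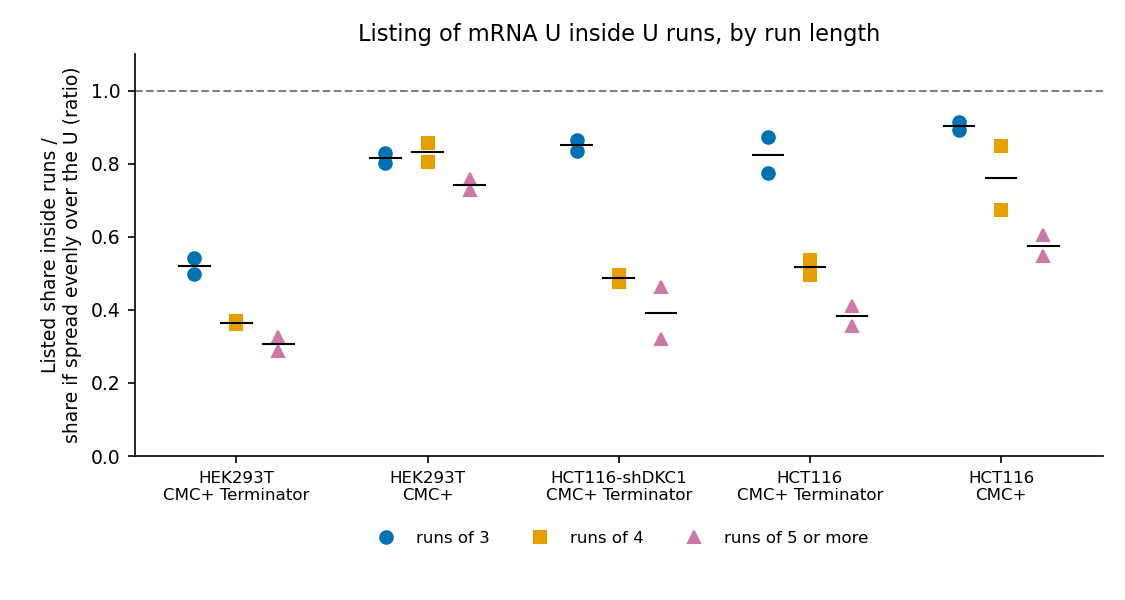
Listed share of run U divided by the even share (no unit) for each treated group, with circles for runs of 3, squares for runs of 4 and triangles for runs of 5 or more, 1 symbol per library and a bar at the mean. The dashed line at 1.0 is an even spread over the U of the same transcripts, and the HEK293T Terminator libraries lie lowest, at means of 0.520, 0.365 and 0.307.

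Within a run, the listed U were not spread evenly over the places. Here all U of a run are counted, the first and last included. In runs of 3, HEK293T Terminator libraries had 14.8 ± 1.21% of the listed U at the first place, 26.1 ± 0.89% at the second and 59.1 ± 2.10% at the last (SD, n = 2), where an even spread gives 33.3%. HEK293T CMC+ libraries had 25.7%, 29.9% and 44.4 ± 0.40%. The last place held 44.9% in knockdown and 45.1% in wild-type HCT116 Terminator libraries, and 38.4% in HCT116 CMC+ libraries. In every group the last place was the most frequent and the first the least.

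Runs of 4 had the same leaning, with the last place holding 50.4 ± 0.88% of the listed U in HEK293T Terminator libraries and 34.5 ± 3.42% in HEK293T CMC+ libraries, where an even spread gives 25%. It held 41.8% in knockdown and 41.2% in wild-type HCT116 Terminator libraries, and 32.2 ± 0.44% in HCT116 CMC+ libraries. In runs of 3 with all 3 U listed, the median stop percent was highest at the last place in all 10 tables, by little in some. The medians in HEK293T Terminator replicate 1 were 10.6%, 10.9% and 12.9% from first to last, and in HEK293T CMC+ replicate 1 they were 9.65%, 9.64% and 9.79%. They were 6.76%, 7.58% and 9.32% in knockdown Terminator replicate 2 and 6.45%, 6.18% and 7.93% in HCT116 CMC+ replicate 1. The CMC- values beside HEK293T Terminator replicate 1 were 6.32%, 6.03% and 7.47%.

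**Figure D2:**
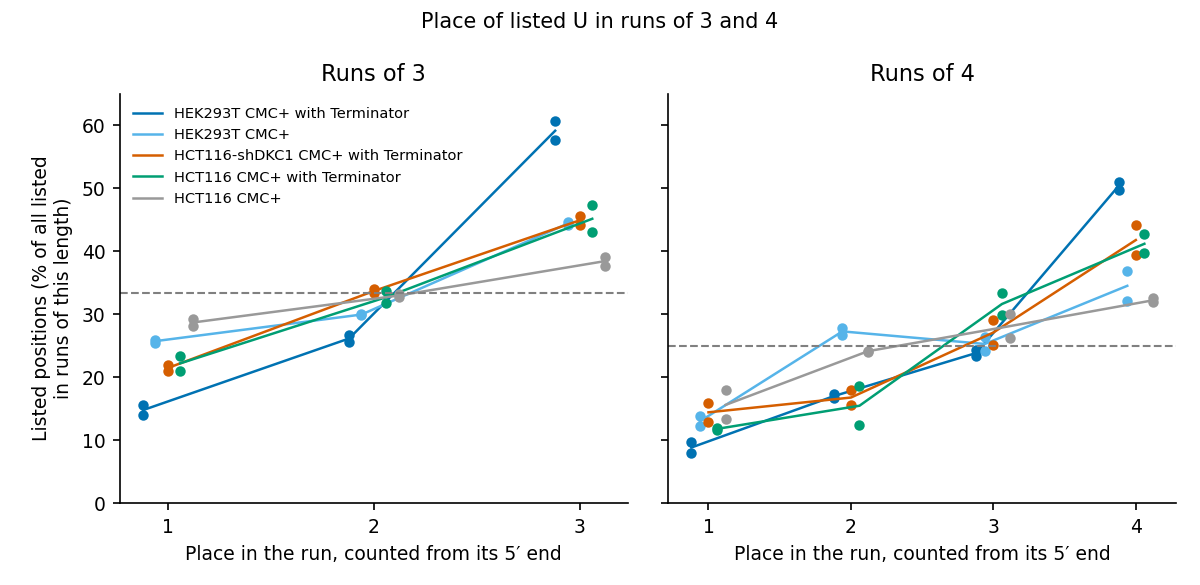
Share of listed U (%, vertical axis) at each place counted from the 5′ end, for runs of 3 and runs of 4 in the 5 treated groups, with dots for libraries and lines joining the means. The dashed lines are the even shares of 33.3% and 25%, and the last place stands highest in each group, at 59.1% for runs of 3 in HEK293T Terminator libraries.

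The base after the run was most often G among listed run U. The bases after all U runs of the same transcripts were not counted, so these shares have no background beside them. It was G for 53.6 ± 0.16% of run U in HEK293T Terminator libraries and 48.5 ± 2.15% in HEK293T CMC+ libraries (SD, n = 2 each). It was G for 59.7% in knockdown and 58.5 ± 0.45% in wild-type HCT116 Terminator libraries, and 48.1 ± 1.33% in HCT116 CMC+ libraries. An A followed the run for 12.3% of run U in HEK293T Terminator libraries and 19.1% in HEK293T CMC+ libraries. Run U lay in 3′ UTRs more often than other listed mRNA U did: taking all listed positions, 33.2% of run U and 18.7% of other mRNA U were there, with 57.4% and 72.6% in coding sequence and 8.5% and 7.9% in 5′ UTRs. The 5′ UTR share of run U was 10.5% in HEK293T Terminator libraries and 6.41% in HEK293T CMC+ libraries.

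Run U stopped reverse transcriptase at a higher percent than other mRNA U, in treated and in untreated libraries alike. The median treated stop percent was 21.0 ± 0.04% for run U and 16.5 ± 0.55% for other mRNA U in HEK293T Terminator libraries, and 21.4 ± 1.76% and 13.1 ± 0.54% in HEK293T CMC+ libraries. The CMC- medians of the same positions were 9.5% and 7.66% beside the Terminator tables, and 11.3% and 7.11% beside the CMC+ tables. In the HCT116 lines the treated medians of run U were 15.6 ± 2.37% in knockdown Terminator, 16.7% in wild-type Terminator and 14.8 ± 2.46% in wild-type CMC+ libraries. Those of other mRNA U were 12.3 ± 1.24%, 13.0 ± 0.24% and 11.0 ± 1.73% in the same order.

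The treated-over-control fold did not follow the stop percent. Its median log2 was 0.96 for run U and 0.98 for other mRNA U in HEK293T Terminator tables, 0.71 and 0.73 in HEK293T CMC+, 0.91 and 0.98 in knockdown Terminator, 1.04 and 1.08 in wild-type HCT116 Terminator, and 0.75 and 0.74 in HCT116 CMC+. Run U had fewer covering reads, with treated medians of 30.5 against 39.8 for other mRNA U in HEK293T Terminator tables and 29.2 against 47.6 in HEK293T CMC+ tables. Since each listed U has at least 5 stop reads, a thinly covered U is listed only at a high stop percent. Within 60 bins of similar covering reads holding at least 20 run U each, run U had the higher treated stop percent in 47, the higher CMC- stop percent in 58 and the lower log2 fold in 53. With at least 50 covering reads in both libraries, the difference between run U and other mRNA U averaged 0.877 percentage points in treated and 0.573 in CMC- libraries, against 4.72 and 2.16 without that limit.

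Stop percents climbed with the length of the run while covering reads fell away. In HEK293T Terminator libraries the medians were 17.4 ± 0.51%, 22.9 ± 0.70% and 35.4 ± 1.33% for runs of 3, of 4 and of 5 or more (SD, n = 2), against 7.82%, 10.5% and 17.3% in CMC-. In HEK293T CMC+ libraries they were 16.1%, 23.3% and 37.1%, against 8.67%, 12.4% and 20.8% in CMC-. Knockdown Terminator libraries had 13.9%, 15.9% and 22.7%, and wild-type HCT116 Terminator libraries 14.5%, 18.9% and 21.8%. Median covering reads in HEK293T Terminator libraries were 37.0, 28.5 and 17.7 for the 3 lengths. The log2 fold in those libraries was 1.00, 0.97 and 0.82, and in HCT116 CMC+ libraries 0.74, 0.77 and 0.78, so no order by length was common to the groups. The part of coverage in the stop percents of long runs was not tested.

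**Figure D3:**
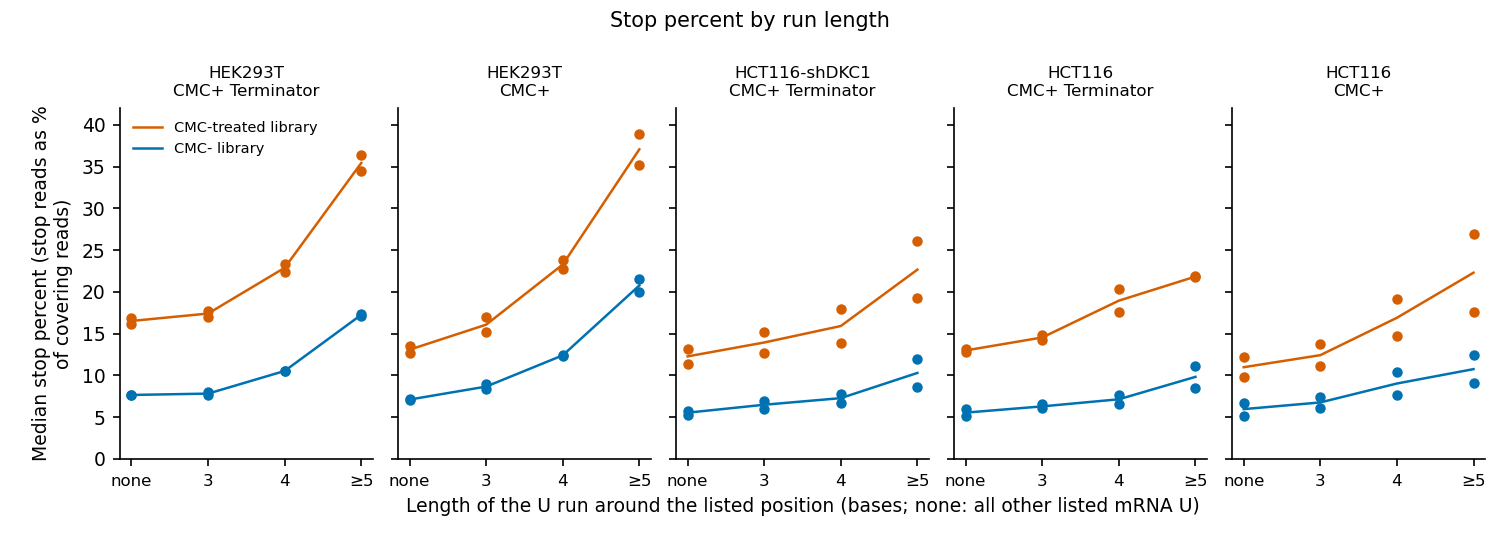
Median stop percent (vertical axis) of other mRNA U ("none") and of run U in runs of 3, 4 and 5 or more, in 5 panels by treated group. Treated libraries are orange and CMC- libraries blue, with dots for libraries and lines for means, and both climb with run length, to 35.4% and 17.3% in the HEK293T Terminator panel.

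Only 7 run U were listed in all 10 tables, and 5275 were listed in 1 table only. HNRNPA1, an hnRNP that binds and helps splice mRNA, held 1 of the 7 at chr12:54284811, place 10 of a run of 11 in its 3′ UTR, where the gene overlaps AC078778.2. Its stop percent was 39.5% and 35.8% in HEK293T Terminator replicates 1 and 2, 19.6% and 22.5% in HEK293T CMC+, and 12.7% and 12.7% in CMC-. The Terminator values lay above all CMC+ values and these above all CMC- values, the direction against CMC- being set by the listing rule. In knockdown Terminator libraries it was 43.2% and 36.1%, against 19.1% and 25.4% in knockdown CMC-. In wild-type HCT116 it was 35.6% and 45.2% with Terminator, against 16.7% and 14.7% in CMC-. Between 2 and 6 of the 11 U were listed per table, none of them at places 1 to 4.

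ACTG1, cytoplasmic gamma-actin, held another at chr17:81510096, place 7 of a run of 8 in its 3′ UTR. Its stop percent was 48.5% and 40.0% in HEK293T Terminator libraries, 31.5% and 30.5% in CMC+, and 24.5% and 24.5% in CMC-. In knockdown cells it was 25.6% and 30.6% with Terminator, against 23.2% and 19.2% in CMC-. In wild-type HCT116 it was 33.3% and 34.9% with Terminator, against 20.7% and 13.6% in CMC-. In each group the treated values lay above the CMC- values, a direction that the listing rule sets. EEF2, the ribosomal translocase, had 18.8% and 17.7% at chr19:3976369 in HEK293T Terminator libraries, 9.83% and 15.1% in CMC+, and 7.51% and 8.5% in CMC-. The other members listed in all 10 tables lay in ACTG1, RPL8, RPL38 and MTRNR2L12, the last a near copy of mitochondrial ribosomal RNA whose reads cannot be told apart from it.

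Changes in stop reads were tested with edgeR's quasi-likelihood test relative to the read total of the library, with the replicate number as a block, over the positions listed in every table of a fit. A position rose or fell where its Benjamini-Hochberg adjusted p over all tested positions was below 0.05 and its fold at least 2. For most run U the p equals that of Poisson counting error and so covers counting error only. For the rest it measures the spread between these samples, which may be technical, since the labels do not say whether replicates came from separate cultures. Of the 170 run U listed in all 4 HEK293T tables, 95 passed the count minimum, as did 83 of 108 in the Terminator tables of the HCT116 lines and 74 of 292 in the HCT116 CMC+ tables. A second fit used the covering reads of each position as the offset, so that it asked for a change in stops per covering read. Against CMC- its direction is set by the listing rule.

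No tested run U was called for CMC treatment without Terminator, in either cell line. In HEK293T CMC+ against CMC-, 0 of 95 were called by edgeR, and 5 had an unadjusted p under 0.05, with 0.445% of all tested positions and 0.0378% of other mRNA U called higher and 0% of each lower. The median log2 change was 0.35 for run U, 0.34 for other mRNA U and 0.14 for all positions, and 87 of the 95 lay above 0. Positions with a lower stop ratio than in CMC- are not listed, so values above 0 are favoured. The smallest p, 0.0109, was at TUBA1B, an alpha-tubulin, with a log2 change of 1.01 and an adjusted p of 0.798. In HCT116 CMC+ against CMC-, edgeR called 0 of 74, and 3 had an unadjusted p under 0.05, with 0.373% of all positions and 0.137% of other mRNA U called higher and 0.0145% and 0% lower. SLC38A2, an amino acid transporter, had the smallest p there, 0.00647, with a log2 change of 1.23 and an adjusted p of 0.352. DESeq2's independent filter gave no adjusted p to any run U in either comparison.

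The listing rule favours rises against CMC-. It asks for 5 or more stop reads in treated libraries, 1 or more in CMC-, and a treated stop ratio no lower. In HEK293T, Terminator libraries against CMC-, 19 of 95 run U rose and 0 fell. That is 20.0%, below the 33.5% of all tested positions and the 33% of other mRNA U called higher, and 0.0202% and 0.0378% of these were called lower. The median log2 change was 0.42 for run U, 0.81 for other mRNA U and 0.82 for all positions. The 19 lay in 18 genes, and every one was the last inner U of its run: 19 of 74 tested run U at that place rose, and 0 of 21 further inside. Runs of 3 held 12 of the 19, and there the only inner U is the last one by the rule. The place could thus vary only in longer runs. A G followed the run in 11 of the 19, with 11 of 54 tested run U before G, 8 of 34 before C and 0 of 7 before A called. TMM scaling moved the median of all positions by -0.80 and called 0 run U higher and 5 lower, so these rises are relative to the library total. None of the rises named for their size passed under TMM, where their log2 changes were 0.48 (EEF1G) to 1.02 (EIF4G1). Without 1 library the 19 calls became 12 (CMC- replicate 1), 9 (CMC- replicate 2), 9 (Terminator replicate 1) and 6 (Terminator replicate 2), and DESeq2 called 0 with an adjusted p for 5 of the 95.

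EIF4G1, the scaffold of the cap-binding complex, rose most of the named members. At chr3:184326558 in its coding sequence it had 0.934 and 0.950 stop RPM in Terminator replicates 1 and 2, 0.352 and 0.456 in CMC+, and 0.262 and 0.255 in CMC-. Its stop percent was 25.6% and 25.4% with Terminator, 9.75% and 10.9% in CMC+, and 8.52% and 5.43% in CMC-. The Terminator libraries stood apart from all 4 others. The log2 change against CMC- was 1.81 ± 0.49 (SE, adjusted p = 0.00123), and 1.86 against covering reads (adjusted p = 0.00328).

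AC010197.2, whose reads cannot be told apart from those of LDHB, a lactate dehydrogenase subunit on the same strand, behaved alike. At chr12:21641976, place 3 of a run of 4 in coding sequence, it had 1.98 and 2.24 stop RPM with Terminator, 0.681 and 0.932 in CMC+, and 0.664 and 0.638 in CMC-. The log2 change was 1.64 ± 0.34 (adjusted p = 2.88e-05), and 1.58 against covering reads (adjusted p = 0.00173). RBBP7, a histone-binding protein of chromatin complexes, had stop percents of 38.5% and 38.9% with Terminator, 27.5% and 23.1% in CMC+, and 14.1% and 10.4% in CMC- at chrX:16857629. Its 3 groups were separate in that order, and the direction against CMC- is set by the listing rule. Its log2 change was 1.43 ± 0.44 (adjusted p = 0.0046), and it was not called without CMC- replicate 2 (adjusted p = 0.141) or without Terminator replicate 2 (adjusted p = 0.112).

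Other rises in HEK293T coding sequence and 3′ UTRs were of similar size. PKM, pyruvate kinase, rose by 1.44 ± 0.44 at chr15:72199106 (adjusted p = 0.00424), with 28.1% and 21.0% stops with Terminator, 18.1% and 14.7% in CMC+, and 10.5% and 6.00% in CMC-. EEF1G, an elongation factor subunit whose reads overlap AP002990.1, rose by 1.28 ± 0.41 (adjusted p = 0.00636). TOMM7, a part of the mitochondrial import pore, rose by 1.34 ± 0.45 (adjusted p = 0.00911). The HNRNPA1 U described above rose by 1.22 ± 0.36 (adjusted p = 0.00312), and by 1.53 against covering reads (adjusted p = 0.00075). PKM lost its call without CMC- replicate 2 (adjusted p = 0.0713). TOMM7 lost it without CMC- replicate 1 (0.0573) or 2 (0.126), and EEF1G without CMC- replicate 1 (0.146) or Terminator replicate 1 (0.121), all as adjusted p.

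In HEK293T, the run U that rose in 5′ UTRs were not called against covering reads. TRIM28, a transcriptional corepressor, had 1.65 and 1.01 stop RPM with Terminator, 0.403 and 0.514 in CMC+, and 0.490 and 0.319 in CMC- at chr19:58544458, place 2 of a run of 3. Its log2 change against CMC- was 1.73 ± 0.43 (adjusted p = 0.000422). Its covering reads were 101 and 95.5 with Terminator, 30.0 and 33.5 in CMC+, and 57.8 and 41.0 in CMC-, and its stop percent was 26.7% and 16.8%, 20.0% and 26.9%, and 16.1% and 12.2% in the same order. Against covering reads its change was 0.65 (adjusted p = 0.265). The stop reads set the Terminator libraries apart, while the stop percents of Terminator and CMC+ overlapped.

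RPL8 and LDHB had the same pattern in their HEK293T 5′ UTRs, while the change of UBE2D3 was no smaller against covering reads. UBE2D3 changed by 1.19 ± 0.46 (adjusted p = 0.0246) and by 1.21 against covering reads (adjusted p = 0.0501), just short of a call. RPL8, a protein of the large ribosomal subunit, changed by 1.39 ± 0.28 (adjusted p = 1.34e-05) and by 0.28 against covering reads (adjusted p = 0.387). LDHB changed by 1.59 ± 0.41 (adjusted p = 0.000641) and by 0.68 against covering reads (adjusted p = 0.198). LDHB was not called without CMC- replicate 2 (adjusted p = 0.0624) or without Terminator replicate 2 (adjusted p = 0.0586). Of 11 tested run U in 5′ UTRs, 5 rose per library total and 0 against covering reads. Of 6 tested in 5′ UTRs in the HCT116 lines, 3 rose and 0 were called against covering reads in the knockdown line, and 3 rose and 3 were called in the wild type. Of the 3 wild-type rises, PSMA7 was also called against covering reads (1.67, adjusted p = 0.038). DAP3 (0.61, adjusted p = 0.309) and PDP1 (0.65, adjusted p = 0.418) rose but were not called against covering reads. In HEK293T coding sequence 11 of 55 rose and 14 against covering reads, and in 3′ UTRs 3 of 28 and 7.

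Against covering reads, 22 of 95 run U were called, and the background was 12.3% of all positions and 18.5% of other mRNA U. The median log2 change was then 0.78 for run U, 0.76 for other mRNA U and 0.53 for all positions. Of the 22, 19 were last inner U and 3 lay further inside. Of the 19 that rose per library total, 12 were also called against covering reads.

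Terminator against CMC+ in HEK293T has no direction set by the listing, and 7 of 95 run U rose and 0 fell. That is 7.4%, below the 23.6% of all positions and the 10.8% of other mRNA U called higher (0.121% and 0.189% lower), with median log2 changes of 0.09, 0.68 and 0.47 for run U, all positions and other mRNA U. RPL8 rose by 1.55 ± 0.30 (adjusted p = 1.22e-05), TRIM28 by 1.5 ± 0.40 (adjusted p = 0.00121) and TOMM7 by 1.27 ± 0.45 (adjusted p = 0.0178). Against covering reads the change of RPL8 was -0.14 and that of TRIM28 -0.13, the opposite direction. TRIM28 was not called without CMC+ replicate 1 (0.99, adjusted p = 0.18), nor TOMM7 without CMC+ replicate 1 (1.44, adjusted p = 0.0534) or 2 (1.05, adjusted p = 0.292). AC010197.2 rose by 1.38 ± 0.31 (adjusted p = 0.000106), and it was the only run U called against covering reads, by 1.22 (adjusted p = 0.0185), with 0.897% of all positions and 1.21% of other mRNA U called. TMM scaling moved the median of all positions by -0.68 and called 0 run U higher and 15 lower. Leaving out 1 library gave 3 calls (without Terminator replicate 2), 4 (CMC+ replicate 2), 5 (CMC+ replicate 1) or 6 (Terminator replicate 1). DESeq2 called 0, with an adjusted p for 2 of the 95.

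**Figure D4:**
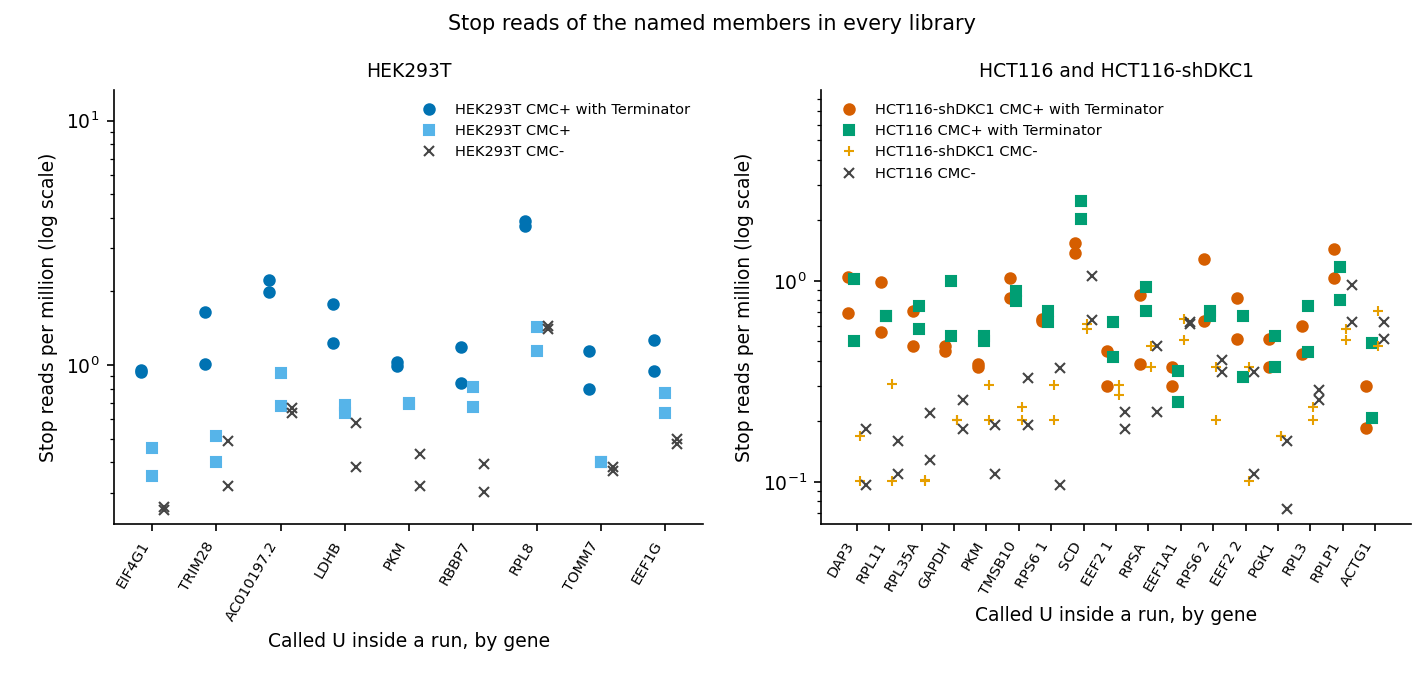
Stop reads per library total, in RPM (log axis), of named run U by library, HEK293T on the left with Terminator, CMC+ and CMC- libraries and the HCT116 lines on the right with Terminator and CMC- libraries of knockdown and wild type. Each symbol is a library; DAP3 shows 0.689 and 1.04 in knockdown Terminator libraries against 0.102 and 0.170 in knockdown CMC-, and EEF1A1 and one ACTG1 position lie below their controls. RPS6 1 and 2 are chr9:19376511 and chr9:19376512, and EEF2 1 and 2 are chr19:3976369 and chr19:3977931.

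In the knockdown line, Terminator libraries against CMC-, 15 of 83 run U rose and 1 fell. In both HCT116 lines, as in HEK293T, the listing rule favours rises. The 15 are 18.1%, where 24.3% of all tested positions and 14.5% of other mRNA U were called higher and 0.18% and 0.187% lower. In wild-type HCT116, 16 of 83 rose and 1 fell. The 16 are 19.3%, where 26% of all positions and 17.3% of other mRNA U were called higher and 0.0803% and 0.14% lower. The median log2 change of run U was -0.08 in knockdown and 0.06 in wild-type cells, against 0.39 and 0.44 for all positions. Of the run U that rose, 11 of the 15 in the knockdown line and 11 of the 16 in the wild type were the same positions. HEK293T and wild-type HCT116 had no called run U in common, of 19 and 16, but only 11 run U were tested in both fits. Among those 11, EEF1G, AC010197.2, HNRNPA1 and PKM were called in HEK293T and EEF2 in wild-type HCT116, so little overlap was possible. For neither pair of groups was the share of all tested positions called in both computed.

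TMM scaling moved the median of all positions by -0.45 in the knockdown line and -0.48 in the wild type. It called 7 run U higher and 13 lower in the knockdown line, and 10 higher and 7 lower in the wild type. Of the named members, DAP3, RPL11, RPL35A and TMSB10 still rose in both lines under TMM. Without 1 library there were 8 calls in the knockdown line without CMC- replicate 2 or without Terminator replicate 2, and 11 without CMC- replicate 1 or Terminator replicate 1. The wild type gave 10 without CMC- replicate 1 and 9 without CMC- replicate 2 or either Terminator replicate. DESeq2 called 0 in both, with adjusted p for 11 and 17 of the 83.

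DAP3, a protein of the small mitochondrial ribosomal subunit, rose most of the named members in both lines, at chr1:155689089, place 5 of a run of 6 in its 5′ UTR. It had 0.689 and 1.04 stop RPM in knockdown Terminator libraries, against 0.102 and 0.170 in knockdown CMC-. In wild-type cells it had 1.02 and 0.5 with Terminator, against 0.183 and 0.0960 in CMC-. Neither pair of groups overlapped. The log2 change was 2.63 ± 0.54 in the knockdown line (adjusted p = 1.13e-05) and 2.40 ± 0.53 in the wild type (adjusted p = 3.8e-05). Its stop percent in knockdown cells was 50% and 65.1% with Terminator and 27.3% and 62.5% in CMC-, which overlapped, and against covering reads the change was 0.40 (adjusted p = 0.503) and 0.61 (adjusted p = 0.309) in the 2 lines.

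Of the 32 tested run U of ribosomal protein genes, 7 rose in the knockdown line and 5 in the wild type, and the named ones lie in coding sequence. Of all tested run U, 18.1% and 19.3% rose in these lines, and of all tested positions 24.3% and 26%. RPL35A, of the large subunit, had stop percents of 25.0% and 27.5% in knockdown Terminator libraries, against 2.8% and 2.97% in CMC-, at chr3:197951246. Wild-type cells had 25.0% and 32.7% with Terminator, against 6.90% and 3.92% in CMC-. Here an A follows the run, the only such case among the run U that rose in either line. Its log2 change was 2.49 ± 0.60 in the knockdown line (adjusted p = 0.000159) and 1.94 ± 0.50 in the wild type (adjusted p = 0.000425), with 3.12 and 2.42 against covering reads. In the wild type the call was lost without CMC- replicate 2 (adjusted p = 0.116) or Terminator replicate 2 (adjusted p = 0.117).

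RPL11, a large-subunit protein that also binds MDM2, had 18.6% and 9.04% stops in knockdown Terminator libraries, against 1.16% and 3% in CMC-, at chr1:23693828. Wild-type cells had 12.1% and 12.5%, against 1.28% and 1.61%. It rose by 1.89 ± 0.55 in the knockdown line (adjusted p = 0.00201) and by 2.25 ± 0.64 in the wild type (adjusted p = 0.00157), with 2.59 and 3.03 against covering reads. RPS6, a small-subunit phosphoprotein, rose at chr9:19376511 by 1.32 ± 0.47 in the knockdown line (adjusted p = 0.0126) and 1.56 ± 0.50 in the wild type (adjusted p = 0.0059), the wild-type rise not called without CMC- replicate 2 or Terminator replicate 2 (0.76 in each case). Its neighbour chr9:19376512, place 2 of the same run, rose by 1.72 ± 0.39 in the knockdown line (adjusted p = 7.78e-05), with 0.86 in the wild type (adjusted p = 0.061). RPL3 rose by 1.21 ± 0.47 in the knockdown line (adjusted p = 0.0246) and 1.14 ± 0.44 in the wild type (adjusted p = 0.0234). RPLP1, a protein of the ribosomal stalk, rose at chr15:69453699 by 1.19 ± 0.30 in the knockdown line (adjusted p = 0.000364), a call lost without CMC- replicate 2 or Terminator replicate 2 (1.02), with 0.31 in the wild type (adjusted p = 0.43). RPSA, a small-subunit protein that is also a laminin receptor, rose by 1.24 ± 0.38 in the wild type (adjusted p = 0.00404), a change of 0.96 without CMC- replicate 2 or Terminator replicate 2, with 0.56 in the knockdown line (adjusted p = 0.241). RPL11 and RPL3 lost their knockdown calls without 1 library of either kind: RPL11 had 0.86 without CMC- replicate 1 or Terminator replicate 1, and RPL3 0.85 without CMC- replicate 2 or Terminator replicate 2.

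TMSB10, an actin-sequestering thymosin, had 26.4% and 17.6% stops at chr2:84906608 in its 3′ UTR in knockdown Terminator libraries, against 3.38% and 3.37% in CMC-. Wild-type cells had 16.7% and 21.6% with Terminator, against 4.97% and 2.82% in CMC-. It rose by 2.05 ± 0.45 in the knockdown line (adjusted p = 4.65e-05) and 1.69 ± 0.41 in the wild type (adjusted p = 0.000239), and after TMM scaling still by 1.61 (adjusted p = 0.000689) and 1.21 (adjusted p = 0.0116). SCD, the stearoyl-CoA desaturase, had 32.4% and 37.0% stops at chr10:100363935 in knockdown Terminator libraries, against 14.1% and 11.3% in CMC-. In wild-type cells it had 30.5% and 32.8%, against 16.5% and 7.27%. It rose by 1.30 ± 0.36 (adjusted p = 0.00103) and 1.44 ± 0.34 (adjusted p = 0.000116) in the 2 lines. The wild-type change was 0.94, below the fold limit, without CMC- replicate 2 or Terminator replicate 2.

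Glycolytic genes also held called run U in the HCT116 lines. PGK1, phosphoglycerate kinase, had 57.1% and 40.0% stops at chrX:78124980 in knockdown Terminator libraries, against 18.5% and 20.8% in CMC-, and rose by 1.36 ± 0.52 (adjusted p = 0.0222), a call lost without any 1 of the 4 libraries. In the wild type it had 50% and 42.9%, against 9.09% and 14.7%, and rose by 1.88 ± 0.57 (adjusted p = 0.00318). GAPDH rose by 1.16 ± 0.49 in the knockdown line (adjusted p = 0.0433) and 1.79 ± 0.43 in the wild type (adjusted p = 0.000165). PKM at chr15:72199488 rose by 1.72 ± 0.52 in the wild type (adjusted p = 0.00303), with 0.58 in the knockdown line (adjusted p = 0.362). EEF2 at chr19:3976369 rose by 1.31 ± 0.49 in the wild type (adjusted p = 0.0185), with 0.38 in the knockdown line (adjusted p = 0.553). In the wild type these calls were lost without 1 library: GAPDH had 1.52 without CMC- replicate 2 or Terminator replicate 2, PKM 1.36 and EEF2 0.88 without CMC- replicate 1 or Terminator replicate 1. EEF2 at chr19:3977931 in coding sequence rose by 1.46 ± 0.53 in the knockdown line (adjusted p = 0.0156), not without CMC- replicate 1 or Terminator replicate 1 (1.12), with 1.03 in the wild type (adjusted p = 0.108).

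The run U that fell, 1 in each line, both lay in 3′ UTRs. EEF1A1, which delivers aminoacyl-tRNA to the ribosome, had 0.356 and 0.250 stop RPM in wild-type Terminator libraries, against 0.623 and 0.608 in CMC-, at chr6:73517632. Its log2 change was -1.02 ± 0.43 (adjusted p = 0.0408). Its covering reads were 113 and 114 with Terminator and 286 and 446 in CMC-, and against covering reads the change was 0.27 (adjusted p = 0.578), in the direction that the listing rule sets. ACTG1 at chr17:81510511 had 0.301 and 0.186 stop RPM in knockdown Terminator libraries, against 0.711 and 0.475 in CMC-. Its log2 change was -1.27 ± 0.45 (adjusted p = 0.0129), and 0.14 against covering reads (adjusted p = 0.787), whose direction is set in the same way. Each of these calls was lost without any 1 of its 4 libraries.

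**Figure D5:**
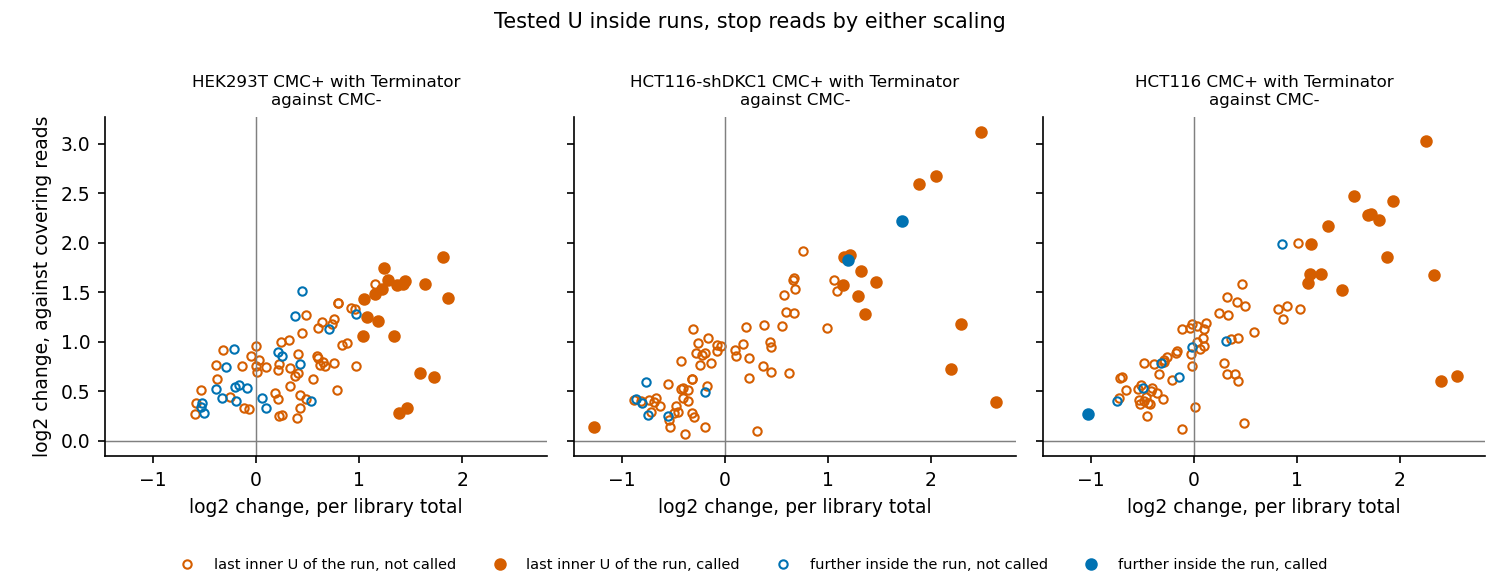
Log2 change of each tested run U per library total (horizontal axis) and against covering reads (vertical axis) for Terminator against CMC- in HEK293T, HCT116-shDKC1 and HCT116. Orange points are last inner U, blue points lie further inside and filled points were called per library total; all points lie above 0 on the vertical axis, as the listing rule sets, and from -0.59 to 1.87 on the horizontal axis in HEK293T.

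Against covering reads, 26 of 83 run U were called in the knockdown line, with 19.7% of all positions and 30% of other mRNA U. In wild-type HCT116 there were 35 of 83, with 24.9% of all positions and 36.8% of other mRNA U. Last inner U held 13 of the 15 rises per library total in the knockdown line (13 of 75 tested) and all 16 in the wild type (16 of 75), with 2 of 8 and 0 of 8 further inside. Runs of 3, where the place is fixed by the rule, held 8 of the 15 and 12 of the 16. A G followed the run in 13 of 46 tested in the knockdown line and 12 of 46 in the wild type, and a C in 1 of 27 and 3 of 27 of the tested run U that rose.

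The question of the knockdown was addressed by the difference between its response and that of the wild type. The response is CMC+ with Terminator against CMC-, so it does not separate Terminator from CMC. No run U passed: edgeR called 0 of 83, with 2 at an unadjusted p under 0.05 and a smallest adjusted p of 1.0, while 0% of all positions and 0% of other mRNA U were called. DESeq2 also called 0, with an adjusted p for all 83 and 0 unadjusted p under 0.05. RPLP1 had 14.3% and 15.8% stops at chr15:69453699 in knockdown Terminator libraries, against 4.62% and 3.94% in knockdown CMC-. Wild-type cells had 11.1% and 13.3% with Terminator, against 5.59% and 6.48% in CMC-. Its difference in the edgeR fit was 0.88 on the log2 scale, with an adjusted p of 1.0. ACTG1 at chr17:81510437 had a difference of 1.34, and UBB, a polyubiquitin gene, one of -1.12, each with an adjusted p of 1.0. The differences ran from -1.14 to 1.34, and 34 of the 83 lay above 0. The median difference was -0.08 for run U, -0.10 for other mRNA U and -0.03 for all positions.

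By gene group, listed mRNA U of hnRNP and SR protein genes, which bind and splice pre-mRNA, were run U in 333 of 4262 cases (7.81%) over 33 genes, where all genes had 4.55%. Translation factor genes had 367 of 5999 (6.12%), heat shock protein genes 140 of 2272 (6.16%), and actin and tubulin genes 110 of 1794 (6.13%). Ribosomal protein genes had 365 of 7564 (4.83%) over 81 genes, and glycolysis genes 94 of 2226 (4.22%). Among tested run U of ribosomal protein genes, 2 of 15 rose with Terminator in HEK293T, 7 of 32 in the knockdown line and 5 of 32 in the wild type. Of those in translation factor genes, 2 of 13 rose in HEK293T and 1 of 16 in each HCT116 line. No tested run U of actin or tubulin genes rose in these comparisons, of 5, 6 and 6. Glycolysis genes had 2 of 4, 2 of 5 and 3 of 5. Of all tested run U, 20.0%, 18.1% and 19.3% rose in HEK293T, the knockdown line and the wild type. Of all tested positions 33.5%, 24.3% and 26% were called higher. With so few run U per gene group, no difference from these shares was tested.

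The pseudouridine synthases and H/ACA proteins had few run U, 6 of 307 listed mRNA U (1.95%) in 4 genes. The 1 in DKC1 lay at chrX:154765910 in coding sequence and was listed in HEK293T CMC+ replicate 1 alone, with 5 stops of 9.29 covering reads (53.8%), against 24.8% in CMC-. PUS1, a stand-alone synthase, had 20.7% in HEK293T Terminator replicate 2 at chr12:131941370, against 3.67% in CMC-. NOP10, an H/ACA core protein, had 36.4% at chr15:34342104 in Terminator replicate 1, against 11.5% in CMC-. GAR1, another core protein, had 43.1% in Terminator replicate 2, against 31.6% in CMC-. None of these was listed in every table, so none was tested.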

How the data were processed

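Stops of reverse transcription were listed by position in 10 tables, each pairing a treated library with a CMC- library. Per the submitters' processing notes reads were processed with cutadapt 2.8 and STAR against hg38, and per the file headers each table gives stop reads, covering reads, stop ratios and RPM. The deposited stop reads are whole counts in the Terminator tables of the HCT116 lines, and partly fractional, so expected counts rounded for the fits, in the others. Library totals were taken from the authors' RPM. HCT116 CMC- stop reads in the tables without Terminator equalled those of the Terminator tables at 44.4% and 45.0% of shared mRNA positions (within 0.0001 reads), so those tables were fitted apart.

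edgeR 4.0.16 (R 4.3.3) was run on positions listed in every table of a fit with 10 or more stop reads in 2 or more libraries, 14825, 26153 and 20660 positions, and was tested on simulated data. For most tested run U (72 to 95 per comparison) its p equals that of Poisson counting error. Standard errors are taken from the p. Replicate numbers pair CMC+ and CMC- libraries per the series' design text. Deviations of these pairs within a line correlated at 0.231 to 0.585, and those of same-numbered libraries of different HCT116 lines at 0.135 to 0.345. The listing rule compares the libraries of a pair, and its part in these correlations was not tested. DESeq2 1.42.0 served as an alternative. Regions and even shares are from GENCODE 29, which held the transcript of 81.8% of listed mRNA U. Named members are, per Terminator comparison, the 10 largest called rises with at least 3 control stop reads (1 per gene) and up to 3 falls, up to 5 calls elsewhere, the best covered members of all 10 tables, and DKC1; 1 of these is not reported here. TUBA1B, SLC38A2, UBB, UBE2D3, PSMA7, PDP1, PUS1, NOP10 and GAR1 were chosen after values were seen. So were the values of RPLP1 and ACTG1 in the knockdown difference. The members and the gene lists were chosen with earlier results of these data known. Reads carry no molecular identifiers that the sources used here mention.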

Additional observations from a re-analysis of the deposited data

Results flagged for a closer look

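The long-run U of ACTG1 at chr17:81510096 had stop RPM below that of CMC- in both knockdown replicates and at or slightly above it in both wild-type replicates. Before division by the library total, the wild-type stop reads were also below CMC-, at 21 against 25 and 15 against 17. The log2 ratio of stop RPM, Terminator over CMC-, was -0.653 and -0.731 in HCT116-shDKC1 and 0.026 and 0.201 in wild-type HCT116, and the difference of the means was -0.805. The opposite signs were not themselves tested; the edgeR fit of the knockdown difference gave -0.78 with an adjusted p of 1.0. Neither line alone passed the test (-0.69, adjusted p = 0.125, in the knockdown and 0.10, adjusted p = 0.845, in the wild type). Its stop percent was higher with Terminator than in CMC- in both lines, 28.1% against 21.2% in the knockdown and 34.1% against 17.1% in the wild type, a direction that the listing rule sets.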

How the results depend on the processing

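Counts of called run U for Terminator against CMC- in HEK293T, Terminator against CMC+ in HEK293T, and Terminator against CMC- in knockdown and wild-type HCT116 were 19, 7, 16 and 17. TMM scaling gave 5, 15 and 20 in the first 3 (0 higher in both HEK293T comparisons). DESeq2 gave 0 in all 4, most adjusted p being NA. Covering reads as offset gave 1 (Terminator against CMC+), 26 and 35; the same without the replicate block, added after seeing the data, gave 1 and 35 where it moved a count by over 1.5 times. Leaving out 1 library gave 6 to 12, 3 to 6, 8 to 11 and 9 to 10, and 0 in the other comparisons; with the block, a library left without its pair adds little. Without the replicate block the counts were 19, 7, 15 and 17, and all 37 named calls were kept, so the pairing changed no named call and 1 count by 1. Of those 37, 24 were also called against covering reads, 9 were not and 4 changed sign, but against CMC- the listing rule sets that sign, so a rise could not turn and a fall had to; 14 held under TMM. The sign changes, with and without the block, were RPL8 (-0.135 and -0.129), TRIM28 (-0.125 and -0.109), both against CMC+, and EEF1A1 (0.274 and 0.324) and ACTG1 (0.136 and 0.129), both falls against CMC-.

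The median log2 change of run U minus that of other mRNA U was -0.39, -0.38, -0.15 and -0.14 in the 4 comparisons, 0.013 and 0.021 for CMC+ in HEK293T and HCT116, and 0.017 for the knockdown difference. Against covering reads it was 0.0127, -0.0624, 0.0323 and 0.0391, with 0.0972 for HCT116 CMC+ and -0.0341 for the knockdown difference; without the block as well, 0.0067, -0.0397, 0.0547, 0.0655, 0.0852 and -0.0284. Leaving out 1 library gave -0.4177 to -0.286, -0.4263 to -0.3398, -0.2797 to -0.1207, -0.1467 to 0.0353, -0.0011 to 0.0873 (HEK293T CMC+), -0.0649 to 0.0789 (HCT116 CMC+; without the block, added after seeing the data, since the block left no residual degrees of freedom) and -0.0471 to 0.0527 (knockdown). The HCT116 CMC+ reversals among these were -0.0506, -0.0144 and -0.0649.

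Over the 5 treated groups, at least 50 covering reads moved the differences in stop percent to 0.8771 (treated) and 0.5729 (CMC-) and the share to 3.55%. At least 3 control stop reads gave a share of 4.74% and turned the difference in log2 fold from -0.0264 to 0.0172, with 0.0528 in HEK293T Terminator, 0.0006 in HEK293T CMC+ and 0.0437 in HCT116 Terminator tables; by replicate it was -0.0319 without replicate 1 and 0.0093 without replicate 2 in HEK293T Terminator tables. The cause of these changes was not tested. With a median of 6 treated stop reads, the values of single run U are imprecise.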
